A study of Rattus norvegicus with 6 samples.

Results

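The lymphocyte-recruiting chemokines and receptors examined here are 10 genes of rat lung: the ligand genes Cxcl9, Cxcl10, Cxcl11, Cxcl12, Cxcl13, Ccl5 and Ccl19, and the receptor genes Ccr7, Cxcr3 and Cxcr6. They were taken by symbol from the deposited table of 22835 genes, and all 10 were found. RNA came from whole lung of female rats of the SD background at 12 weeks of age, with 3 rats per genotype and 6 libraries in all. In the ND1_cKO rats, which the labels also call DP, Sftpc-Cre was combined with the LSL-DdCBE-ND1 allele. A DdCBE is a base editor that is sent to mitochondria and converts C to T in the DNA there, and this one is directed at ND1, which encodes a subunit of complex I of the respiratory chain. The control rats were age-matched littermates that, in the design text, carry the LSL allele (ND1LSL), though WT is the genotype on their sample labels. The Sftpc promoter is that of surfactant protein C, which marks alveolar type 2 cells, so the edited cells are epithelial and the lymphocytes, dendritic cells, stroma and endothelium that carry most of the genes below are not the cells in which the Cre is driven. Cre, the active editor and the ND1 edit differ between the genotypes together and cannot be told apart.

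Chemokines are small secreted proteins that guide leukocytes along a gradient through G-protein-coupled receptors. Cxcl9, Cxcl10 and Cxcl11 are induced by interferons and act on Cxcr3, the receptor of activated T cells and NK cells. Homeostatic chemokines organise lymphoid tissue: Cxcl13 draws B cells through Cxcr5, Ccl19 draws naive T cells and mature dendritic cells through Ccr7, and Cxcl12 retains and guides many leukocytes through Cxcr4. Ccl5 is made in quantity by T and NK cells and acts on receptors that include Ccr1 and Ccr3, and Cxcr6, the receptor of resident T cells, binds Cxcl16.

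Libraries held between 28669995 and 38303274 counts, of which between 8705 and 14537 fell on the 10 genes. The targeted gene, ND1, was at 2732 ± 329 CPM (read counts scaled to a common library size with TMM factors; SD, n = 3) in controls and 3614 ± 165 in ND1_cKO. Counts show its abundance and not the edit. As lung markers, Sftpc had 14009 ± 1322 CPM in controls and 8162 ± 2599 in ND1_cKO, and none of the lung epithelial markers was at 0 in any library. Of the T, NK, B, plasma and dendritic cell markers, likewise 0 were at 0 in any library. Control replicate 1 and ND1_cKO replicate 3 stood apart from their groups in several of the genes below, and values without them are given there.

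The stretches of sequence before the start sites of 4 ligand genes are shown here. Cxcl9, Cxcl10 and Cxcl11 had the same order of libraries within each genotype, while Cxcl13 had another. The sizes differed: in ND1_cKO replicate 3 the log2 levels relative to the control mean were -0.34 for Cxcl9, 0.15 for Cxcl10 and 1.24 for Cxcl11. RefSeq (GRCr8) lists Cxcl11, Cxcl10 and Cxcl9 next to each other on chromosome 14 with no other gene between them. The 250 bases before each start site are given 5′ to 3′ in the direction of transcription. Capitals mark every match, on either strand, to the letters of 3 motifs: GAAANNGAAA, the core of the interferon-stimulated response element (ISRE); TTCNNNGAA, the gamma-activated site (GAS); and GGGNNNNNCC, a loose NF-kappaB site.
Cxcl9, chr14:16006916-16007165, plus strand: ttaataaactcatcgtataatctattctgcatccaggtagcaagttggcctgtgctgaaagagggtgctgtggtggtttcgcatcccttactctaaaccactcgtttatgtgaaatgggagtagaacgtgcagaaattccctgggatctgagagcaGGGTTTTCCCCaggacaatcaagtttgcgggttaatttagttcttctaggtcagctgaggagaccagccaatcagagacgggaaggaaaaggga
Cxcl10, chr14:15988816-15989065, plus strand: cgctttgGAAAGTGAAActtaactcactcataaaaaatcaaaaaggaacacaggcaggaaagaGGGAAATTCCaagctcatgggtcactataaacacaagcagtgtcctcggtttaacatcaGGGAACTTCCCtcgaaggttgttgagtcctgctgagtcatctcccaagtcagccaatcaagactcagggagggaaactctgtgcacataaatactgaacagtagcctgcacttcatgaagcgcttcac
Cxcl11, chr14:15973478-15973727, plus strand: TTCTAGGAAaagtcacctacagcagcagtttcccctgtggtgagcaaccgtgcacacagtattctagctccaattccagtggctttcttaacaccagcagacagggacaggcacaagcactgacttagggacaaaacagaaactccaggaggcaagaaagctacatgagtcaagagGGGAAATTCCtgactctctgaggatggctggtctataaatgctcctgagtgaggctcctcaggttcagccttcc
Cxcl13, chr14:13917921-13918170, minus strand: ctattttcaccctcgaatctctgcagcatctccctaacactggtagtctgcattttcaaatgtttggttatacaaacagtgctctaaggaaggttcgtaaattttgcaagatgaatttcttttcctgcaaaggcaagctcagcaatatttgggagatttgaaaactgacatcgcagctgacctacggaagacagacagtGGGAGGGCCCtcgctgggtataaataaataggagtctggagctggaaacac
In Cxcl10 the ISRE match gaaagtgaaa lies 243 to 234 bases before the start site, and the other capitals there are NF-kappaB matches. In Cxcl11 the first capitals are a GAS match, 250 to 242 bases before the start, and the second an NF-kappaB match. Cxcl9 and Cxcl13 held only NF-kappaB matches in this window. Of the 8 members whose RefSeq promoter was used, the ISRE letters were found in 2 (Cxcl10 and Ccl19, where they lie 51 to 42 bases before the start), the GAS letters in 1 and the NF-kappaB letters in 7. Among 33469 promoter stretches of the same length the shares were 3.41%, 7.67% and 42.3%. Matches of different motifs did not overlap in the members (0 overlaps). Promoters of Ccl5 and Ccr7 were not used here.

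Over the 10 genes, 8 had lower and 2 higher mean levels in ND1_cKO, and Cxcl13 had the lowest p-value. With edgeR's quasi-likelihood test and Benjamini-Hochberg adjustment over all 16548 genes tested, 0 of the 10 passed an adjusted p of 0.05, where 2.42% of all genes passed (1.14% higher and 1.28% lower). All 10 members were among the genes tested. At an unadjusted p under 0.05 there were 3, namely Cxcl13 (higher) and Ccl19 and Ccr7 (lower), a share to be read against 21.4% of all genes (11.1% higher and 10.2% lower). DESeq2, which the submitters' processing notes list, called 2 of the 10, Cxcl13 higher and Ccl19 lower, against 11% of all genes (5.73% higher and 5.29% lower). Limma-voom called 0, and limma-voom with library weights called Cxcl13 alone, against 5.83% of all genes (2.86% higher). In 3 of the 10 (Cxcl13, Ccl5 and Ccr7) the 3 rats of a genotype all lay on the same side of the 3 of the other, and the same held for 28.2% of all genes (14.1% in each direction). The median log2 fold change (ND1_cKO over control) of the 10 was -0.60, and that of all genes tested was 0.01. The members' edgeR counts and their share without overlap lie near those of all genes, and DESeq2's 2 of 10 stands beside its 11%. In whole lung, fewer cells of a type and less RNA per cell cannot be told apart, and this applies to every level below.

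**Figure D1:**
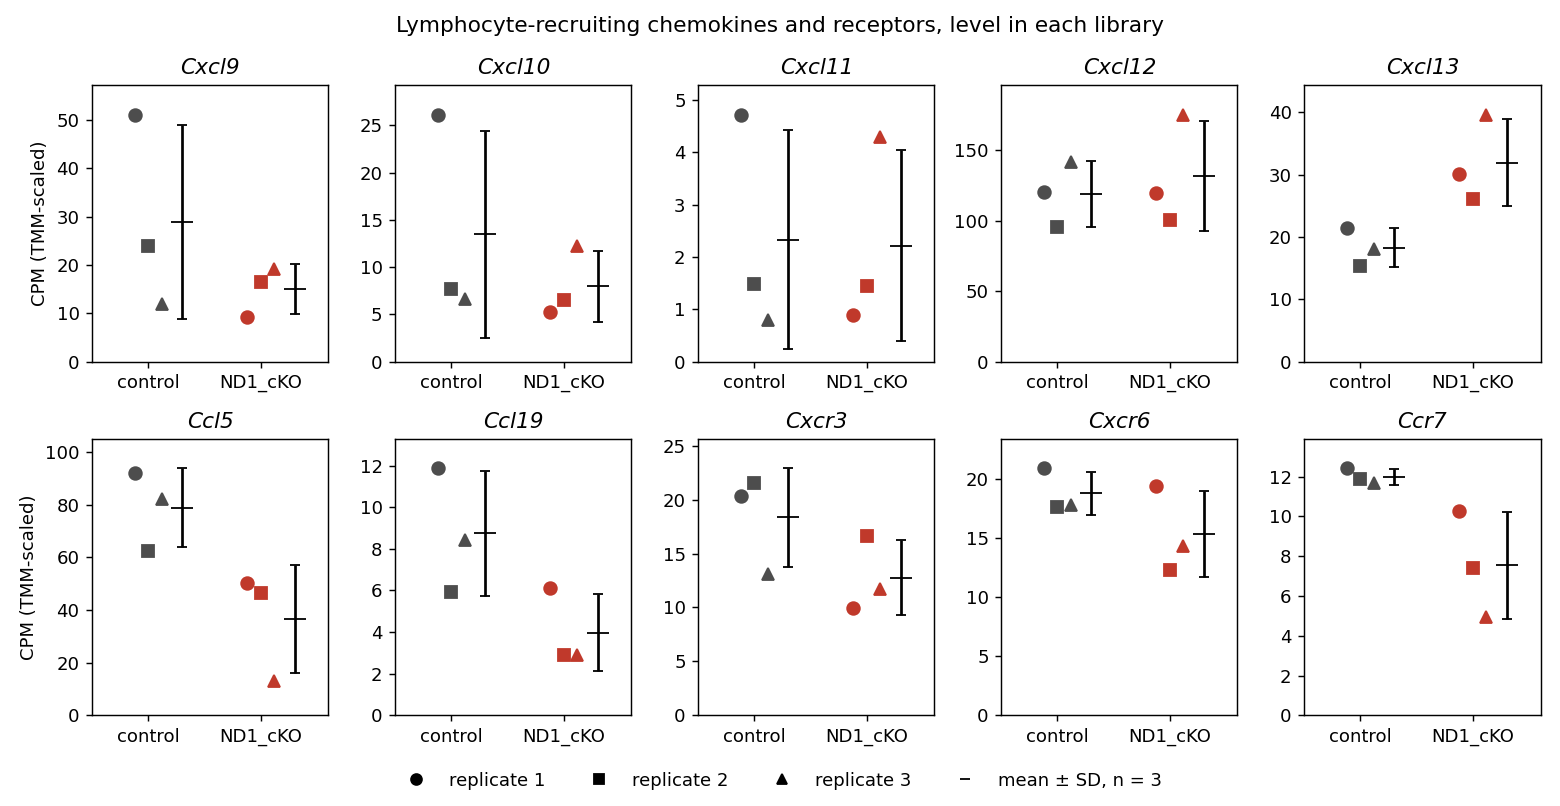
Level of each of the 10 genes in each library, in TMM-scaled CPM on axes that start at 0; circles, squares and triangles are replicates 1, 2 and 3, grey for control and red for ND1_cKO, and black bars are mean ± SD (n = 3). Cxcl13 has all ND1_cKO rats above all controls, Ccl5 and Ccr7 the reverse, and control replicate 1 stands high in Cxcl9, Cxcl10 and Cxcl11.

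Cxcl13, the B-cell attractant of lymphoid follicles, was at 21.5, 15.3 and 18.1 CPM in control replicates 1, 2 and 3 and at 30.1, 26.1 and 39.6 CPM in ND1_cKO replicates 1, 2 and 3. All 3 ND1_cKO rats lay above all 3 controls, with replicate 3 the highest. The fitted difference was 1.75-fold (log2 0.80 ± 0.19 SE, n = 3 in each group). Its adjusted p by edgeR, 0.0727, misses the threshold. DESeq2 gave the same size (log2 0.80) with an adjusted p of 0.00271. The fitted log2 difference stayed between 0.61 and 0.94 with any library left out, at edgeR adjusted p between 0.0557 and 0.225.

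Its receptor gene Cxcr5, named here as the partner of Cxcl13, had a lower mean in ND1_cKO. Cxcr5 was at 5.22, 5.56 and 3.27 CPM in controls and 3.73, 3.10 and 2.05 CPM in ND1_cKO, with the genotypes overlapping (log2 -0.66 ± 0.31, edgeR adjusted p = 0.276). Markers of B cells were low where Cxcl13 was high. All 10 B-cell markers had negative log2 fold changes (median -0.92), and their summed level ran from 155 to 203 CPM in controls and from 67.2 to 127 CPM in ND1_cKO, lowest in replicate 3. With edgeR 0 of the 10 passed, with 7 lower at an unadjusted p under 0.05; DESeq2 called 7 lower, limma-voom 0 and limma-voom with library weights 1. Bank1, a B-cell adaptor, was at 29.7 ± 2.30 CPM in controls and 11.9 ± 4.77 in ND1_cKO (log2 -1.32 ± 0.30, edgeR adjusted p = 0.0696). Ms4a1, which encodes the B-cell surface protein CD20, was at 13.8 ± 2.81 and 7.37 ± 2.08 CPM (edgeR adjusted p = 0.0995).

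Macrophage and stromal markers mostly had higher means in ND1_cKO, without passing with edgeR. Macrophage and monocyte markers were positive in 9 of 10 tested (median 0.43), with 0 called by edgeR, 4 higher at an unadjusted p under 0.05, 4 called by DESeq2, 0 by limma-voom and 1 by limma-voom with library weights. Among them Siglec1, a macrophage lectin, was at 27.8 ± 6.88 CPM in controls and 56.0 ± 7.98 in ND1_cKO (log2 1.01 ± 0.20, edgeR adjusted p = 0.0528). The summed macrophage level overlapped, from 16912 to 20552 CPM in controls and from 14134 to 23371 in ND1_cKO. Most of that sum was Lyz2, at 15731, 19503 and 17860 CPM in controls and 12623, 22300 and 18177 in ND1_cKO. Fibroblast and pericyte markers summed to between 1392 and 1845 CPM in controls and between 2164 and 6758 in ND1_cKO, where Col1a1 and Col3a1, the fibrillar collagen genes, made up most of the sum. In that list 7 of 10 were positive and 0 passed with edgeR, with 4 higher at an unadjusted p under 0.05, 3 called by DESeq2, 0 by limma-voom and 2 with library weights. The part of these cells in the Cxcl13 level was not tested.

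Ccl19, the T-cell-zone chemokine, was at 11.9, 5.91 and 8.43 CPM in controls and 6.13, 2.88 and 2.92 CPM in ND1_cKO. ND1_cKO replicate 1 lay just above control replicate 2, so the genotypes overlapped by that pair. The fitted level was 2.20-fold lower in ND1_cKO (log2 -1.14 ± 0.38), with an edgeR adjusted p of 0.155 and a DESeq2 adjusted p of 0.0280. With a library left out the log2 difference ran from -1.60 to -0.85, at edgeR adjusted p between 0.0941 and 0.308.

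Ccr7, the receptor for Ccl19, was nearly constant among controls, at 12.4, 11.9 and 11.7 CPM. In ND1_cKO it was at 10.3, 7.39 and 4.94 CPM, below every control and most so in replicate 3. The fitted difference was log2 -0.67 ± 0.25, with an edgeR adjusted p of 0.189 and a DESeq2 adjusted p of 0.0890, and it was -0.45 without ND1_cKO replicate 3. Ccl21, the other Ccr7 ligand and a product of lymphatic endothelium, overlapped between the genotypes, at 127, 92.9 and 125 CPM in controls and 128, 91.5 and 161 in ND1_cKO (log2 0.14 ± 0.22, edgeR adjusted p = 0.756). Its fold change was -0.07 without ND1_cKO replicate 3. Ackr4, the scavenger receptor that removes Ccl19 and Ccl21, was at 15.5, 19.4 and 23.0 CPM in controls and 12.1, 8.77 and 4.32 in ND1_cKO, with no overlap (log2 -1.20 ± 0.36, edgeR adjusted p = 0.127, DESeq2 adjusted p = 0.00755). Lymphotoxin beta, Ltb, which signals to the stroma that makes these chemokines, was at 26.7 ± 1.55 CPM in controls and 17.3 ± 3.18 in ND1_cKO (log2 -0.62 ± 0.15, edgeR adjusted p = 0.0727).

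Cxcl12 differed little between genotypes. It was at 120, 95.3 and 142 CPM in controls and 119, 100 and 175 in ND1_cKO, so the ranges overlapped and only ND1_cKO replicate 3 lay above the controls. The log2 difference of 0.15 ± 0.23 (edgeR adjusted p = 0.758) turned to -0.12 without that library. Its receptor Cxcr4 was at 87.2, 103 and 104 CPM in controls and 70.1, 71.5 and 49.4 in ND1_cKO, without overlap (log2 -0.62 ± 0.15, edgeR adjusted p = 0.0811, DESeq2 adjusted p = 0.00738). Ackr3, a scavenger of Cxcl12, was at 65.9, 65.6 and 85.9 CPM in controls and 68.4, 74.0 and 167 CPM in ND1_cKO, high in replicate 3 alone, and its log2 difference of 0.51 was -0.03 without that library. Dpp4, a peptidase that trims and inactivates several of these chemokines, was at 231 ± 11.9 CPM in controls and 175 ± 38.8 in ND1_cKO (log2 -0.40 ± 0.16, edgeR adjusted p = 0.217), a difference of -0.23 without ND1_cKO replicate 3.

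**Figure D2:**
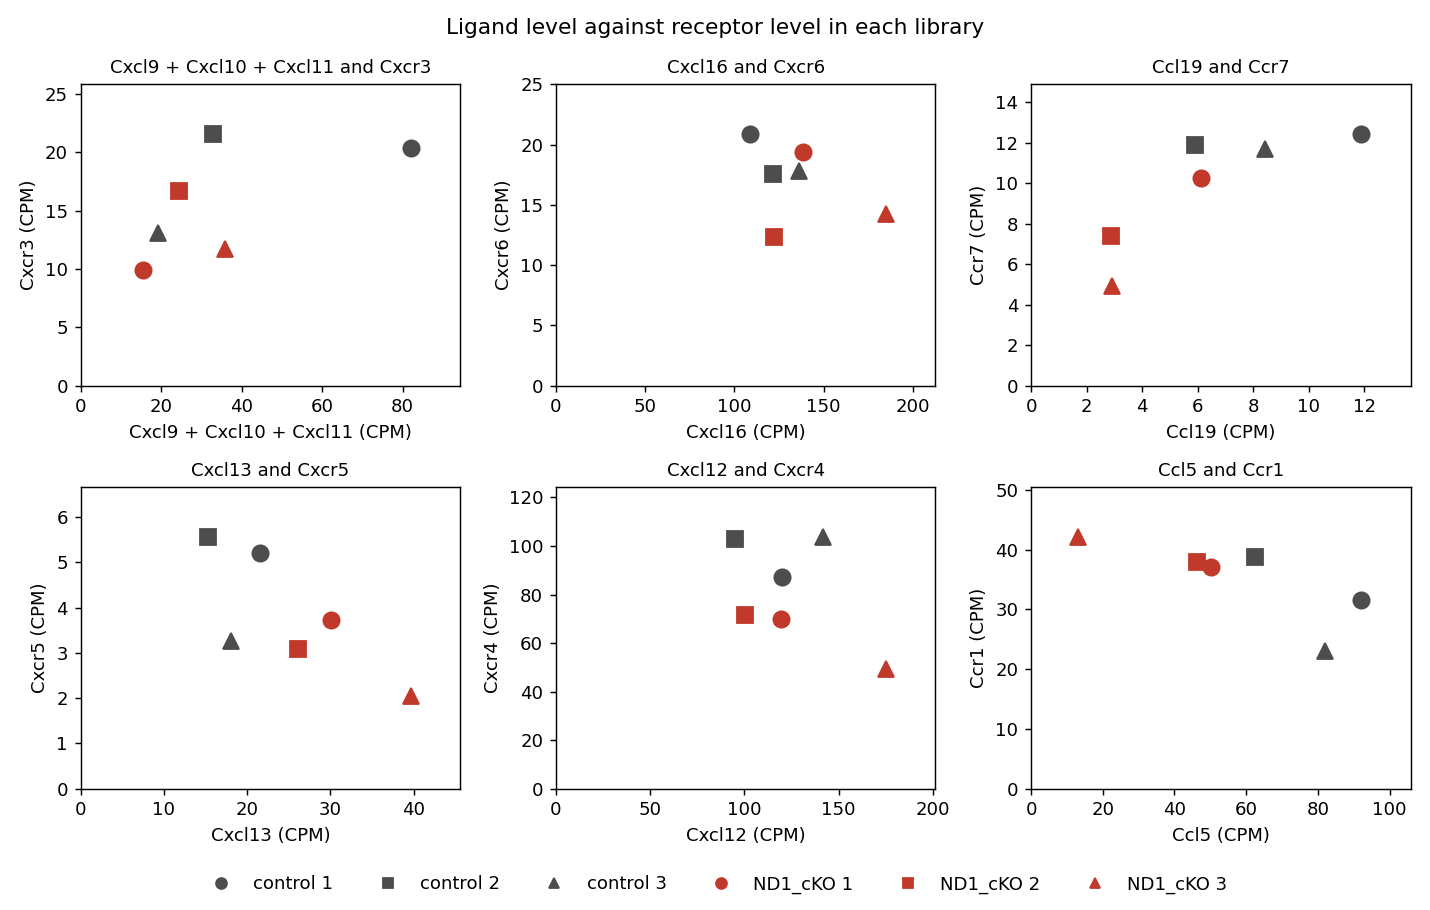
Level of a ligand gene (x axis, CPM) against that of its receptor gene (y axis, CPM) in each library, for 6 pairs, with axes that start at 0; grey marks are controls, red marks ND1_cKO rats, and circles, squares and triangles are replicates 1, 2 and 3. Cxcl13 is higher in the 3 ND1_cKO rats while Cxcr5 overlaps between the genotypes, and Cxcr4 separates the genotypes while Cxcl12 does not.

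The 3 interferon-induced ligands varied widely among rats of the same genotype. Cxcl9 was at 51.1, 23.9 and 11.9 CPM in controls and 9.30, 16.4 and 19.3 CPM in ND1_cKO. Cxcl10 was at 26.1, 7.64 and 6.64 CPM in controls and 5.23, 6.49 and 12.2 in ND1_cKO. Cxcl11 was at 4.72, 1.48 and 0.792 CPM in controls and 0.900, 1.44 and 4.29 in ND1_cKO, resting on between 23 and 180 counts per library. In each of the 3 genes control replicate 1 was the highest library, and among ND1_cKO rats replicate 3 was the highest and replicate 1 the lowest.

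The spread was wide. Between the highest and the lowest control library the level differed 4.31-fold for Cxcl9, 3.93-fold for Cxcl10 and 5.96-fold for Cxcl11, against 1.41-fold for Cxcl13. The biological coefficient of variation was 0.457, 0.505 and 0.667 for Cxcl9, Cxcl10 and Cxcl11, with a median of 0.165 over all genes tested. Log2 differences of -0.95 ± 0.55, -0.76 ± 0.60 and -0.09 ± 0.80 had edgeR adjusted p-values of 0.372, 0.513 and 0.966. Without control replicate 1 they were -0.26, 0.16 and 0.95, so that Cxcl10 and Cxcl11 changed sign; Cxcl11 was also positive without ND1_cKO replicate 1 (0.28) or 2 (0.13). Summed over the 3 ligands, the level was 82.0, 33.0 and 19.3 CPM in controls and 15.4, 24.4 and 35.8 CPM in ND1_cKO.

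The profile of these ligands was matched by that of a few other genes. Ubd, an interferon- and TNF-inducible ubiquitin-like protein, was the closest of 13569 candidate genes to Cxcl11 over the 6 libraries, with a root mean square difference of 0.183 log2 units between centred profiles. It was at 67.1, 22.3 and 9.02 CPM in controls and 12.2, 17.6 and 45.1 in ND1_cKO. Genes of heart muscle were also among the closest: Tnnc1 and Actc1 for Cxcl9, Cpt1b, Fabp3 and Actc1 for Cxcl10, and Tnnt2 for Cxcl11, at differences between 0.257 and 0.341 log2 units. A list of 8 heart muscle genes, put together after these profiles were seen, summed to 139, 52.2 and 20.1 CPM in controls and 21.6, 29.3 and 40.5 CPM in ND1_cKO. Control replicate 1 was the highest library in each of the 8, as in the 3 chemokines. In ND1_cKO replicate 3 most of the sum was Actc1 (24.4 CPM) and Tnnt2 (12.0 CPM), both picked for their likeness to the chemokines. Myh6, the alpha heavy chain of cardiac myosin, was at 38.5, 9.21 and 0.138 CPM in controls and 2.04, 3.42 and 0.056 in ND1_cKO. Myh6 was thus lowest in the ND1_cKO library with the highest Cxcl9, Cxcl10 and Cxcl11. The mean log2 level of the 8 genes relative to controls was likewise lowest there among ND1_cKO rats, at -1.03, -0.25 and -1.53 in replicates 1, 2 and 3. The part of this tissue in the chemokine levels was not tested.

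Irf1 and Gbp5, also regulated by interferon, varied less among controls and separated the genotypes. They had the lowest p-values of the listed interferon gamma signalling genes, a choice that favours such a pattern. Irf1, a transcription factor induced by interferon gamma, was at 154, 132 and 130 CPM in controls and 78.0, 101 and 73.2 in ND1_cKO, a fall of log2 -0.72 ± 0.14 (edgeR adjusted p = 0.0468). Gbp5, an interferon-induced GTPase, fell from 79.7, 61.4 and 65.9 CPM to 30.0, 40.8 and 28.5 CPM (log2 -1.06 ± 0.16, edgeR adjusted p = 0.0326). In both every ND1_cKO rat lay below every control. Control replicate 1 was the highest library, as in Cxcl9, Cxcl10 and Cxcl11, but lay nearer to the other controls. Il15, a cytokine that sustains T and NK cells, was at 15.3 ± 1.03 CPM in controls and 10.4 ± 0.803 in ND1_cKO (log2 -0.56 ± 0.12, edgeR adjusted p = 0.0597).

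Of the 18 tested genes of interferon gamma signalling, 2 fell and 0 rose with edgeR (Gbp5 and Irf1), with a median log2 fold change of -0.50 and 15 negative. Ifng itself was at or below 0.786 CPM in every library and did not separate the genotypes. It was at 0.786, 0.216 and 0.275 CPM in controls and 0.300, 0.244 and 0.309 in ND1_cKO, highest in control replicate 1. Of 17 type I interferon-stimulated genes 4 fell and 0 rose, with a median of -0.54 and 16 negative, beside 1.28% of all genes called lower. Xaf1, an interferon-induced regulator of cell death (log2 -0.83 ± 0.12, edgeR adjusted p = 0.0291), Herc6, a ligase for the ubiquitin-like protein ISG15 in rodents (-0.83 ± 0.13, adjusted p = 0.0320), and Irf9, a subunit of the ISGF3 complex (-0.48 ± 0.08, adjusted p = 0.0405), had the lowest p-values. DESeq2 called 7 lower and 1 higher in the first list and 11 lower in the second. Leaving out any control, or ND1_cKO replicate 1, brought both edgeR counts to 0. Blood endothelial markers moved with them, with 9 of 10 negative, 4 called lower by edgeR, and a summed level between 4796 and 5261 CPM in controls and between 3149 and 3277 in ND1_cKO; its part in the interferon genes was not tested.

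**Figure D3:**
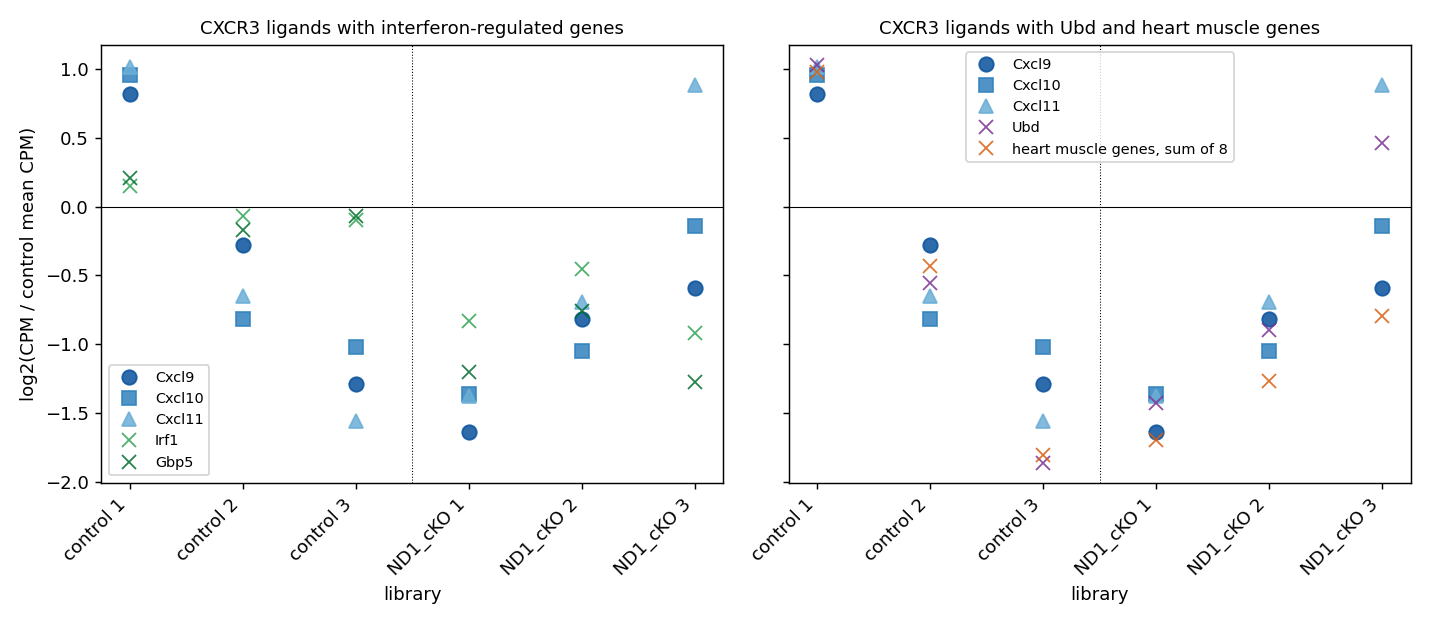
Log2 of the level in each library over the control mean, for Cxcl9, Cxcl10 and Cxcl11 (blue) beside Irf1 and Gbp5 (green crosses, left) and beside Ubd (purple) and the sum of 8 heart muscle genes (orange, right). Libraries are on the x axis, with a dotted line between genotypes. Both green genes are below 0 in the 3 ND1_cKO rats and near 0 in the controls, while the chemokines are high in control replicate 1 and scattered elsewhere; most of the heart muscle sum in ND1_cKO replicate 3 is Actc1 and Tnnt2.

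Ccl5, the T- and NK-cell chemokine, was at 92.0, 62.5 and 82.0 CPM in controls and 50.1, 46.4 and 13.1 CPM in ND1_cKO. All ND1_cKO rats were below all controls, and replicate 3 was far below the rest. The fitted level was 2.16-fold lower (log2 -1.11 ± 0.49, edgeR adjusted p = 0.259; DESeq2 adjusted p = 0.237). Without ND1_cKO replicate 3 the difference was log2 -0.71 at an edgeR adjusted p of 0.0678. Its receptor gene Ccr1 had a higher mean in ND1_cKO, at 31.2 ± 7.86 CPM in controls and 39.0 ± 2.71 in ND1_cKO (log2 0.32 ± 0.18, edgeR adjusted p = 0.350). That difference was 0.51 without control replicate 2 and 0.15 without control replicate 3.

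The summed level of the NK-cell markers had the same low library. All 10 were negative (median log2 fold change -0.998), and their sum was 188, 121 and 171 CPM in controls and 95.6, 115 and 41.9 CPM in ND1_cKO. With edgeR 0 passed, with 7 lower at an unadjusted p under 0.05; DESeq2 called 5, limma-voom 0 and limma-voom with library weights 1. Eomes, a transcription factor of NK and cytotoxic cells, was at 5.37, 3.67 and 4.37 CPM in controls and 2.15, 2.74 and 0.926 in ND1_cKO, also lowest in replicate 3. Klrk1, the activating receptor NKG2D, was not: it was at 23.2, 19.3 and 21.0 CPM in controls and 14.6, 14.2 and 17.0 in ND1_cKO, where replicate 3 was the highest. The part of NK cells in the Ccl5 level was not tested. Gzmk, a granzyme gene of cytotoxic T cells, was the second closest gene to Ccl5 in profile, 0.109 log2 units away, at 26.3, 17.4 and 20.7 CPM in controls and 16.1, 13.2 and 3.96 in ND1_cKO.

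Cxcr3, the receptor of the interferon-induced ligands, was at 20.3, 21.6 and 13.1 CPM in controls and 9.95, 16.6 and 11.7 in ND1_cKO. The genotypes overlapped, since control replicate 3 was below ND1_cKO replicate 2 (log2 -0.53 ± 0.25, edgeR adjusted p = 0.285). Cxcr6 was at 20.9, 17.6 and 17.8 CPM in controls and 19.4, 12.3 and 14.3 in ND1_cKO, overlapping through ND1_cKO replicate 1 (log2 -0.29 ± 0.18, edgeR adjusted p = 0.399). Leaving out ND1_cKO replicate 1 gave a difference of -0.51, and leaving out replicate 2 gave -0.17. Cxcl16, the transmembrane ligand of Cxcr6, was at 122 ± 13.8 CPM in controls and 148 ± 32.5 in ND1_cKO (log2 0.28 ± 0.16, edgeR adjusted p = 0.373), a difference of 0.09 without ND1_cKO replicate 3.

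T-cell markers were lower in mean level as well. Of 17, 15 were negative (median -0.64). Their sum ran from 407 to 497 CPM in controls and from 329 to 410 CPM in ND1_cKO, an overlap by a small margin. The sums overlapped through Cd4, which had the highest level of the list. Cd4 was at 143, 127 and 115 CPM in controls and 176, 137 and 172 in ND1_cKO (log2 0.33 ± 0.13, edgeR adjusted p = 0.192). EdgeR called 0 of the 17 markers, with 13 lower and 1 higher (Cd4) at an unadjusted p under 0.05. DESeq2 called 9 lower, limma-voom 1 and limma-voom with library weights 3. Cd2, an adhesion receptor of T and NK cells, was at 25.1 ± 1.85 CPM in controls and 15.7 ± 2.44 in ND1_cKO (log2 -0.68 ± 0.13, edgeR adjusted p = 0.0505).

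Set against the mean of the 17 T-cell markers in the same library, the receptor levels did not separate the genotypes. On a log2 scale relative to these markers, Cxcr3 was at 0.06 ± 0.38 in controls and 0.10 ± 0.54 in ND1_cKO (SD, n = 3; exact two-sided permutation p = 0.9). For Cxcr6 the values were 0.12 ± 0.03 and 0.38 ± 0.26 (exact permutation p = 0.4), and for Ccr7 -0.52 ± 0.13 and -0.68 ± 0.24 (exact permutation p = 0.5). With a library left out, the Cxcr6 difference of 0.26 ran from 0.15 (without ND1_cKO replicate 3) to 0.41 (without ND1_cKO replicate 2). The Ccr7 difference of -0.16 ran from -0.27 (without ND1_cKO replicate 1) to -0.03 (without ND1_cKO replicate 3), and was -0.10 without control replicate 2. Ccl5 was at 2.22, 1.98 and 2.32 in controls and 1.82, 1.99 and 0.46 in ND1_cKO, a difference of -0.75 (exact permutation p = 0.2) that was -0.26 without ND1_cKO replicate 3. Over these 4 comparisons the adjusted p was 0.667 or more, and 3 rats against 3 cannot give less than 0.1.

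**Figure D4:**
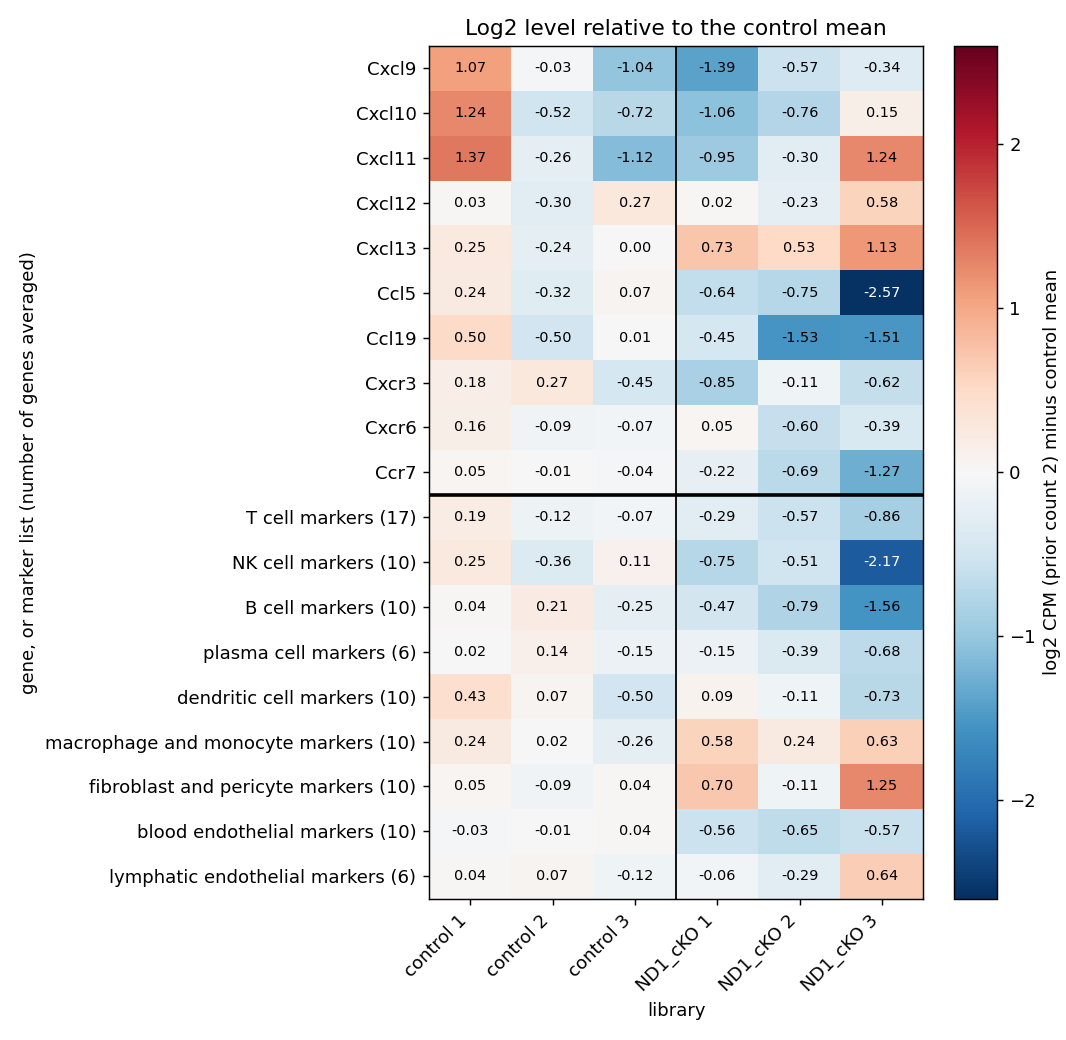
Log2 CPM (prior count 2) of each of the 10 genes, and the mean over each marker list, in each library relative to the control mean; red is higher and blue lower, and the number of genes averaged stands in brackets. ND1_cKO replicate 3 is the lowest library for Ccl5 (-2.57) and Ccr7 (-1.27) and also for the NK (-2.17), B (-1.56) and T cell (-0.86) markers.

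Among the 12 receptors, ligands and scavengers paired with the members, 0 passed with edgeR and 4 were lower at an unadjusted p under 0.05 (Cxcr4, Ackr1, Ackr4 and Dpp4), with a median log2 fold change of -0.09. DESeq2 called 3 lower, limma-voom 0 and limma-voom with library weights 1. Ackr1, a chemokine-binding receptor of venular endothelium, was at 4.67 ± 0.118 CPM in controls and 2.79 ± 0.404 in ND1_cKO (log2 -0.75 ± 0.21, edgeR adjusted p = 0.101).

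Among 22 tested of 24 other lymphocyte chemokines and trafficking receptors, 16 were negative (median -0.29) and 0 passed with edgeR, with 3 lower and 2 higher at an unadjusted p under 0.05. DESeq2 called 3 lower, limma-voom 0 and limma-voom with library weights 1. Itgae, the integrin alpha E chain of intraepithelial T cells and some dendritic cells, was at 23.5 ± 2.37 and 15.3 ± 4.08 CPM (edgeR adjusted p = 0.138). Xcr1, the receptor of cross-presenting dendritic cells, was at 17.1 ± 4.38 and 8.36 ± 3.54 CPM (edgeR adjusted p = 0.176). Dendritic cell markers as a list overlapped, at a sum between 194 and 270 CPM in controls and between 198 and 239 in ND1_cKO. That sum hides opposite moves, with 7 of the 10 negative and 3 positive. EdgeR called 0 of them, and DESeq2 called 1 higher and 1 lower. Clec10a, with the lowest p-value of the list, was at 24.0 ± 5.19 CPM in controls and 56.7 ± 22.6 in ND1_cKO (edgeR adjusted p = 0.0965). Zbtb46, the next, was at 26.6 ± 3.32 and 18.7 ± 3.51 CPM (edgeR adjusted p = 0.136). Neither overlapped between the genotypes.

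Of 16 lymphotoxin and lymphoid stroma genes 0 passed with edgeR, with 2 lower and 1 higher at an unadjusted p under 0.05, and DESeq2 called Ltb alone, limma-voom 0 and limma-voom with library weights 0. Map3k14, the kinase of the non-canonical NF-kappaB pathway, was at 20.4 ± 1.92 CPM in controls and 15.5 ± 1.76 in ND1_cKO (edgeR adjusted p = 0.139). Ltbr, the lymphotoxin beta receptor, was at 103 ± 7.14 and 126 ± 14.7 CPM (edgeR adjusted p = 0.185). The ligand and its receptor thus lay on opposite sides of no difference, neither past the threshold.

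**Figure D5:**
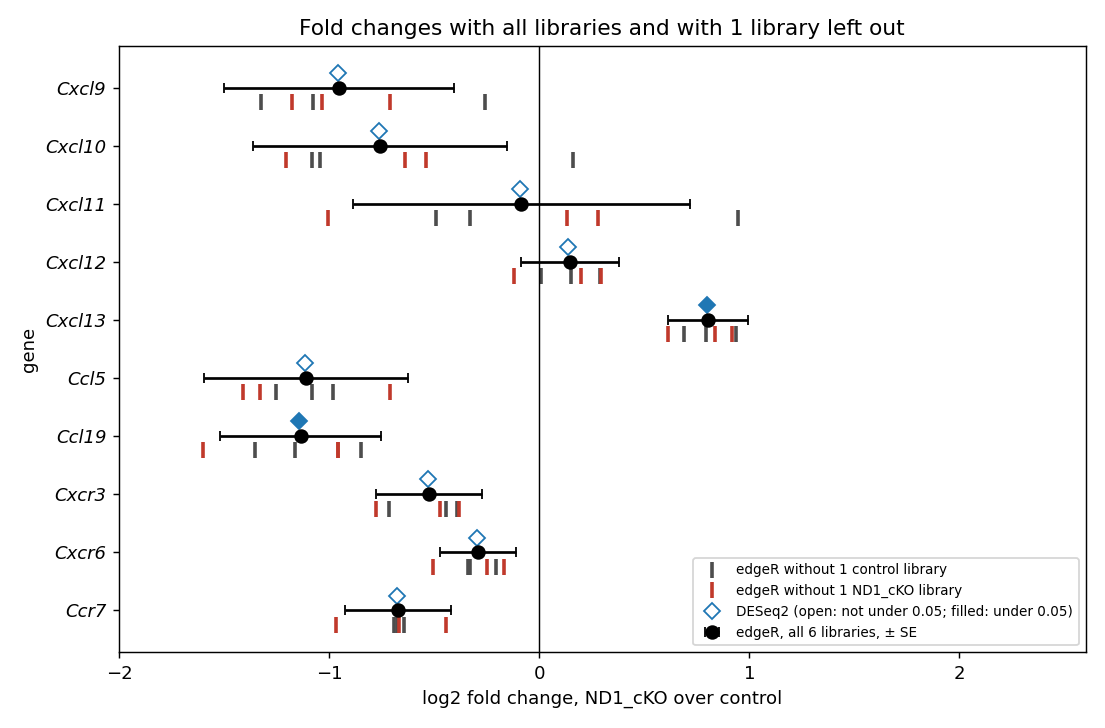
Log2 fold change, ND1_cKO over control, of each of the 10 genes: black circles are edgeR with all 6 libraries (± SE), ticks are edgeR with 1 control (grey) or 1 ND1_cKO (red) library left out, and diamonds are DESeq2, filled where its adjusted p is under 0.05. Ticks keep the sign of the circle for Cxcl9, Cxcl13, Ccl5, Ccl19, Cxcr3, Cxcr6 and Ccr7, and cross 0 for Cxcl10, Cxcl11 and Cxcl12.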

How the data were processed

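The authors deposited whole-number read counts, with a row for each gene symbol and a column for each library. Columns were assigned by the column name in each sample's description, and 0 columns had no sample. The submitters' processing notes list fastp, HISAT2, HTSeq, DESeq2 and R (version 4.3.3) without saying what each did. Genome build, annotation and strand setting: not given in the sources used here. Reads of overlapping or antisense genes therefore cannot be told apart. Each library is a separate rat.

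The test was edgeR 4.0.16's quasi-likelihood F test (robust, two-sided, TMM, filterByExpr) on genotype alone, in R 4.3.3, with Benjamini-Hochberg adjustment over all 16548 genes tested; a gene is called at adjusted p under 0.05. A standard error is the size of the log2 fold change divided by the root of F. Alternatives were DESeq2 1.42.0, limma 3.58.1 (voom, with and without library weights), other scalings and filters, a replicate block and each library left out. The test was run on simulated counts first. No libraries agreed within sampling noise (chi-square per degree of freedom at least 23.7). CPM values are relative to the TMM-scaled library size. Transcript lengths were not used here, so levels relative to T-cell markers, and ligands plotted against receptors, compare libraries and not genes.

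The members and gene lists were chosen with earlier results of these data known. Named genes are the members, the 3 lowest p-values of each pathway list and the 2 lowest of each marker list, and for each member the 3 closest profiles among genes at 1 CPM or more on average. Cxcr5, Ccr1, Cxcl16, Ccl21, Ackr3 and Dpp4 were named as partners of members, and Ifng, Myh6 and the heart muscle list after their values were seen. Some genes that the rule names are not reported here. Promoter sequences are RefSeq's (GRCr8), and 8 of 10 members matched in the promoter sequences used.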

Additional observations from a re-analysis of the deposited data

How the results depend on the processing

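The count of 0 members called was unchanged under other scalings, filters, limma-voom, the replicate block and each library left out; it was 2 with DESeq2 (1 higher, 1 lower) and 1 with library weights (1 higher). Over all genes 400 were called, against 1879 with DESeq2, 964 with library weights and between 0 and 495 with a library left out. The lowest of these were 0 without control replicate 2, 9 without replicate 3 of the controls, 23 without the first ND1_cKO rat and 184 without control replicate 1. Of the listed pathway genes 6 were called, against 26 with DESeq2, 14 with library weights and between 0 and 8 with a library left out. With a library left out, Cxcl10 ran from -1.21 to 0.16 (positive without control replicate 1). Cxcl11 ran from -1.005 to 0.95, positive without control replicate 1 (0.95) or ND1_cKO replicate 1 (0.28) or 2 (0.13). Leaving out ND1_cKO replicate 3 turned Cxcl12 (-0.12, otherwise up to 0.30), Ccl21 (-0.075, up to 0.32) and Ackr3 (-0.028, up to 0.72). Cxcr3 relative to T-cell markers (0.05) ran from -0.16 to 0.35; it was -0.14 without control replicate 3 and -0.16 and -0.05 when ND1_cKO replicates 2 and 3 were left out. The cause of these moves was not tested.

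Replicate numbers were not treated as pairs: the deviations of same-numbered rats correlated at 0.165, 0.0235 and 0.135 over genes for numbers 1, 2 and 3, and each library correlated best with its own number, a hint from the data and not from the design. With the replicate block 262 genes, 2 listed pathway genes and 0 members were called. Cxcl11, at between 23 and 180 counts per library, has the least depth of the members.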

Other observations

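The genes closest in profile to the remaining members over the 6 libraries were partly lymphocyte genes. They were picked by the smallest root mean square difference between centred log2 CPM profiles among 13569 genes, which describes these libraries and carries no test. Ccr7 was closest to RT1-CE13, a class I histocompatibility gene whose reads may be shared with its relatives, and then to Tcf7, a transcription factor of naive T cells (0.085 log2 units), and Themis, a T-cell development gene (0.086). Tcf7 was at 84.3, 77.8 and 84.8 CPM in controls and 67.4, 48.3 and 37.8 in ND1_cKO, the same order of ND1_cKO rats as Ccr7. Cxcr3 was closest to Ctsw, a cathepsin of cytotoxic lymphocytes (0.126), at 27.2, 25.7 and 15.9 CPM in controls and 13.6, 17.3 and 14.3 in ND1_cKO. Next to Cxcr3 after Ctsw came P3h2 (0.147) and Fcgr3a (0.171). Ccl19 was closest to the immunoglobulin light chain gene Iglc1 (0.244), with Atp2c2 (0.264) as the second and the T- and B-cell costimulatory receptor Cd27 (0.267) as the third.

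Cxcl13 was closest to Zfp819, Zc3h12a and Hacd1. Zc3h12a, which encodes the RNase regnase-1 that degrades inflammatory transcripts, was 0.086 log2 units away, at 18.6, 12.7 and 17.8 CPM in controls and 27.5, 24.8 and 33.7 in ND1_cKO, without overlap. Cxcl12 was closest to Selenom, Fam114a1 and Prr7, and Cxcr6 to Map6, Ngfr and Il6r. Besides Gzmk, Ccl5 was close to Sp5 and to the cytochrome P450 gene Cyp2b1 (0.181), which was at 850, 702 and 718 CPM in controls and 371, 456 and 118 in ND1_cKO. Ccl5 and Cyp2b1 share their lowest library, ND1_cKO replicate 3.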
